A study of Mus musculus with 7 samples.

Results

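Of the 43629 genes in the count table, 10 were followed here: Dppa2, Dppa4, Utf1, Dppa3, Dppa5a, Fbxo15, Tcl1, Upp1, Spp1 and Jam2, genes used as markers of mouse embryonic stem (ES) cells and set apart from the pluripotency transcription factors. Each symbol matched 1 Ensembl identifier of the table. They were measured by poly(A) RNA sequencing in 7 libraries of E14 cells, an ES cell line of 129/Ola background. The first group, KO ESC, held undifferentiated Ago2-knockout ES cells grown with serum and LIF, with 1 library of line C4 and 2 of line 5-3 (5-3_1 and 5-3_2). The second group, WT XEN, held wild-type cells after 5 days of differentiation toward extra-embryonic endoderm (XEN), with libraries A and B. The third, KO XEN, held Ago2-knockout cells after the same 5 days, with 1 library each of lines C4 and 5-3. The differentiation medium held 15% serum, activin A at 10 ng/mL and retinoic acid (all-trans) at 0.1 µM, and LIF is not listed for it. Wild-type ES cells were not analysed here. The reference for every remaining level below is therefore the knockout ES cell, and in the comparison of WT XEN with KO ESC genotype and differentiation cannot be told apart.

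ES cells are held in the pluripotent state by a network around Oct4, Sox2 and Nanog, and a wider set of genes is active with that network and silenced when cells leave the state. The 10 genes belong to this wider set and do unlike things. Dppa2 and Dppa4 are chromatin proteins with a SAP domain that act together, Utf1 is a chromatin-bound protein of ES cells and germ cells, and Dppa3 (Stella) protects DNA in the egg and early embryo from changes in methylation. None of the 10 is one of the classical pluripotency factors, but these 4 proteins act in the nucleus, and Utf1 was named as a cofactor of transcription. Dppa5a is an RNA-binding protein of the KH-domain family, Fbxo15 an F-box protein of the SCF ubiquitin ligases, Tcl1 a coactivator of the kinase AKT, and Upp1 the uridine phosphorylase that splits uridine for pyrimidine salvage. Spp1 (osteopontin) is a secreted ligand of integrins and CD44, and Jam2 a cell adhesion molecule of the junctions between cells.

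Library totals were 39998808 to 48650113 counts in KO ESC, 36427340 to 38595537 in WT XEN, 13941826 in the KO XEN library labelled C4 and 33389566 in that of 5-3. Ago2 mRNA was at 9.37 and 9.65 CPM (read counts scaled by the TMM-adjusted library size) in the ES libraries of 5-3, at 94.4 CPM in that labelled C4, at 394 and 432 CPM in WT XEN, and after differentiation of the knockout at 122 CPM in the library labelled C4 and 9.94 CPM in 5-3. The libraries labelled C4 thus kept more Ago2 mRNA than those of 5-3. How the gene was disrupted is not given in the labels, so results that rest on C4 are also given without it. The mitochondrial share of counts was 2.79 to 3.26% in KO ESC, 1.94 to 2.64% in WT XEN and 0.781 to 0.979% in KO XEN. The summed level of 19 markers of extra-embryonic endoderm was 796 to 837 CPM in KO ESC, 54685 to 78005 CPM in WT XEN and 8268 to 9879 CPM in KO XEN. That of 13 fibroblast and mesenchyme markers was 149 to 254, 925 to 2120 and 13498 to 15731 CPM. Against KO ESC all 19 endoderm markers rose in WT XEN, while in KO XEN 13 rose, 2 fell (Lrp2 and Hnf4a, log2 -1.93 and -2.37) and 4 did not pass the test, and Sparc at 5001 CPM was the largest part of the sum. Of the mesenchyme markers 11 rose and 1 fell in each XEN group, and Lum was at 0 in KO XEN. Acta2, at 4281 CPM, was the largest part of their sum in KO XEN. Between the XEN groups 18 of the endoderm markers were lower in the knockout, and 9 of the mesenchyme markers were higher and 2 lower. Of all genes, 23.9% were lower and 22.3% higher in that comparison. The summed level of 10 macrophage and blood markers was 16.0 to 20.6 CPM in KO ESC, 29.6 to 41.8 CPM in WT XEN and 17.0 to 18.4 CPM in KO XEN, most of it Cd68. Of these markers 3 were tested, and Csf1r and Lyz2 rose in both XEN groups, Csf1r from 0.0787 CPM to 11.9 CPM in WT XEN and 3.48 CPM in KO XEN. Ptprc had 4 counts and Adgre1 1 count over all 7 libraries. The sum of 7 endothelial markers was 102 to 140, 35.5 to 37.5 and 40.3 to 48.2 CPM, with 3 higher and 3 lower in WT XEN and 2 higher and 2 lower in KO XEN against KO ESC. Over all genes 32.2% were higher and 30.3% lower in WT XEN, and 34.8% and 34.3% in KO XEN. Pecam1 averaged 82.0, 3.53 and 1.23 CPM and Kdr 9.45, 16.4 and 38.6 CPM in KO ESC, WT XEN and KO XEN.

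Promoter windows of 300 bases (250 before to 50 after a RefSeq start, GRCm38.p6) were matched for 4 of the 10 genes: Utf1, Tcl1, Upp1 and Spp1. Shown are 3 stretches of them outside protein-coding exons: those of Utf1 and Tcl1, whose windows held the most GC boxes among these genes, and that of Spp1, which holds an octamer, the sequence recognised by Oct4 and its relatives. The Utf1 stretch is chr7:139943606-139943788 (plus strand) and ends at the gene's first exon, with GC boxes (GGGCGG) in capitals, 2 of which overlap. The Tcl1 stretch is chr12:105222794-105222987 (minus strand) and also ends at the first exon, with the GC box, here as CCGCCC on the opposite strand, in capitals. The Spp1 stretch is chr5:104435942-104436191 (plus strand). It lies in the first intron of the longer Spp1 transcripts, before an alternative start, and the capitals mark ATTTG followed after 2 bases by the octamer ATGCAAAT.
Utf1: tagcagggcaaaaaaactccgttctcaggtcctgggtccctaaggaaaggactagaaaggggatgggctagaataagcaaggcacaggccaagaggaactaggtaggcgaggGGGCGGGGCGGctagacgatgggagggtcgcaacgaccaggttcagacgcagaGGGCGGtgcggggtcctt
Tcl1: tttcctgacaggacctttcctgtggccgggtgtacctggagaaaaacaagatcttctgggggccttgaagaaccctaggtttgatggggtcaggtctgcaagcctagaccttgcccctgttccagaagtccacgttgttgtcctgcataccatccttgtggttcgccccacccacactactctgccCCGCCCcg
Spp1: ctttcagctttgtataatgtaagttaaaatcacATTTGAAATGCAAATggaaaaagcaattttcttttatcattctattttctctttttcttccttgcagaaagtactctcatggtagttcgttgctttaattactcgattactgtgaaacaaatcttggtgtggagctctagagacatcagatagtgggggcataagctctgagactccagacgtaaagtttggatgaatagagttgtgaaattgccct
A palindromic octamer element to which Oct4 can bind as a dimer has been described in the first intron of osteopontin. The pattern in capitals was in 2 of all 32851 promoter windows, or 0.00609%, and was searched after the windows had been read. These are the Spp1 window itself and a window of Olfr1382. The octamer alone was in 1.74% of windows. The Utf1 window held 4 GC boxes and the Tcl1 window 2, against a motif present in 35.7% of windows. Searched on both strands, a Sox motif (CATTGTT, in 3.78% of windows) and an Esrrb motif (AAGGTCA, 4.72%) had no match in the 7 windows of these genes. A KLF motif (CCACCC, 31.5%) had 1 match in Tcl1 and 1 in the first Upp1 window, and TATAAA (13.6%) had 1 in the first Spp1 window. None of these motifs holds the letters of another. CpG dinucleotides numbered 17 in the Utf1 window, 11 in Tcl1, 7 to 13 in the 3 windows of Upp1 and 3 in each of the 2 windows of Spp1, beside a median of 7 over all windows.

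In KO ESC all 10 genes were expressed. Levels of different genes were compared per length, as CPM per kilobase of merged exons (mean ± SD, n = 3). Dppa5a was the highest at 2510 ± 91.6 CPM per kilobase, followed by Spp1 at 467 ± 66.1 and Upp1 at 211 ± 34.0. Utf1 stood at 93.3 ± 30.2, Dppa4 at 81.2 ± 3.82, Fbxo15 at 72.0 ± 1.94, Jam2 at 55.3 ± 6.92, Dppa2 at 50.6 ± 13.3, Tcl1 at 35.6 ± 15.2 and Dppa3 at 10.9 ± 12.5 CPM per kilobase. In this order the libraries of Utf1 and Dppa4, of Jam2 and Dppa2, and of Dppa2 and Tcl1 overlapped, and the other neighbours did not. Dppa3 reads may be shared with Dppa3-ps, a pseudogene copy on the X chromosome that had 145, 17 and 47 counts in the 3 KO ESC libraries, so the Dppa3 level is uncertain. Copies of Dppa5a were not analysed here, and its level is uncertain for the same reason. The predicted gene Gm42793, not listed in the count table, shares 309 exonic bases with Spp1 on the same strand.

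**Figure D1:**
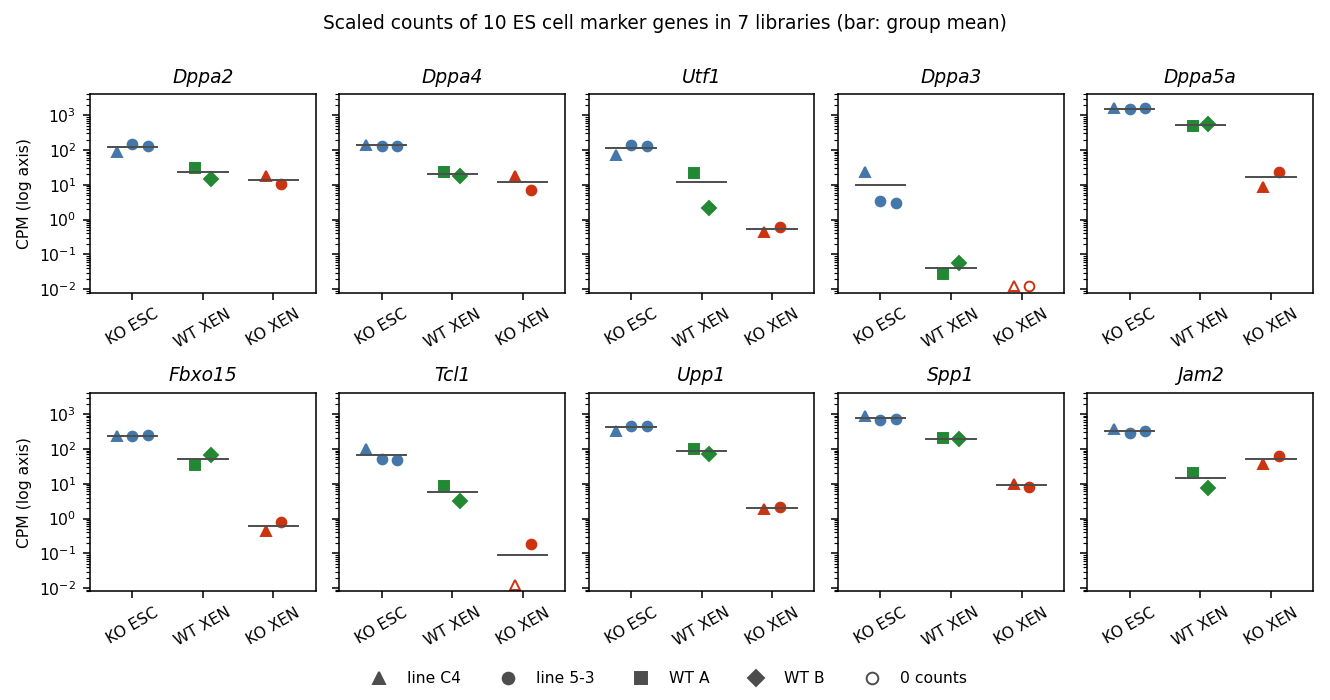
Scaled counts (CPM, log axis) of the 10 genes in each library, with KO ESC in blue, WT XEN in green and KO XEN in red, symbols for the line or replicate, a bar at the group mean and open symbols at the axis floor for 0 counts. In 9 genes WT XEN lies between KO ESC and KO XEN by group mean, while Jam2 is lowest in WT XEN. For Dppa2 and Dppa4 the libraries of the XEN groups overlap, and Dppa3 has 3 counts in WT XEN and 0 in KO XEN.

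In wild-type XEN cells all 10 genes fell below knockout ES cells, and each but Dppa3 kept 1.88% or more of the ES level in both libraries. The median over the 10 genes was 18.4% of the KO ESC level in library A and 12.5% in library B. Dppa5a kept the most, a mean of 34.3% (31.5 and 37.2%), and Spp1 25.4% (26.0 and 24.8%), while Jam2 kept 4.27% (6.27 and 2.27%) and Dppa3 0.424% (0.281 and 0.567%). In between stood Fbxo15 at 21.0%, Upp1 at 20.8%, Dppa2 at 18.7%, Dppa4 at 15.0%, Utf1 at 10.7% and Tcl1 at 8.91%. Of the neighbours in this order, those whose 2 libraries did not overlap were Dppa5a and Spp1, and Jam2 and Dppa3. All 10 genes were called lower (edgeR quasi-likelihood, adjusted p below 0.05), where 30.3% of the 18426 genes tested were called lower and 32.2% higher. The median log2 fold change was -2.58 over the 10 genes and -0.03 over all genes. Dppa3 passed the filter on low counts through KO ESC alone, so it had to differ. In 10 of 10 genes the WT XEN and KO ESC libraries did not overlap, as in 37.7% of all genes in that direction. In these bulk libraries fewer cells that express a gene and less RNA per cell cannot be told apart.

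In knockout XEN cells all 10 genes were again lower than in knockout ES cells. Jam2, Dppa2 and Dppa4 kept means of 14.9%, 11.3% and 9.22% of the KO ESC level, and the other 7 genes kept 1.17% or less. Spp1 kept 1.17% (1.27% in C4 and 1.06% in 5-3) and Dppa5a 1.05% (0.565 and 1.54%), Upp1 0.487% and Utf1 0.459%, Fbxo15 0.255% and Tcl1 0.141%, and Dppa3 had no count. Dppa4 and Spp1, Dppa5a and Upp1, and Utf1 and Fbxo15 were neighbours in this order whose libraries did not overlap. The median over the 10 genes was 0.510% in C4 and 0.798% in 5-3. All 10 were called lower, where 34.3% of all genes were called lower and 34.8% higher, and in 10 of 10 the groups did not overlap, as in 41.2% of all genes in that direction. The median log2 fold change was -7.11, or -6.86 with Dppa3 set at its bound, beside -0.08 over all genes. Dppa3 and Tcl1 did not pass the filter on low counts through KO XEN. This comparison shares the KO ESC libraries with that of WT XEN, so the 2 sets of falls are not independent.

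**Figure D2:**
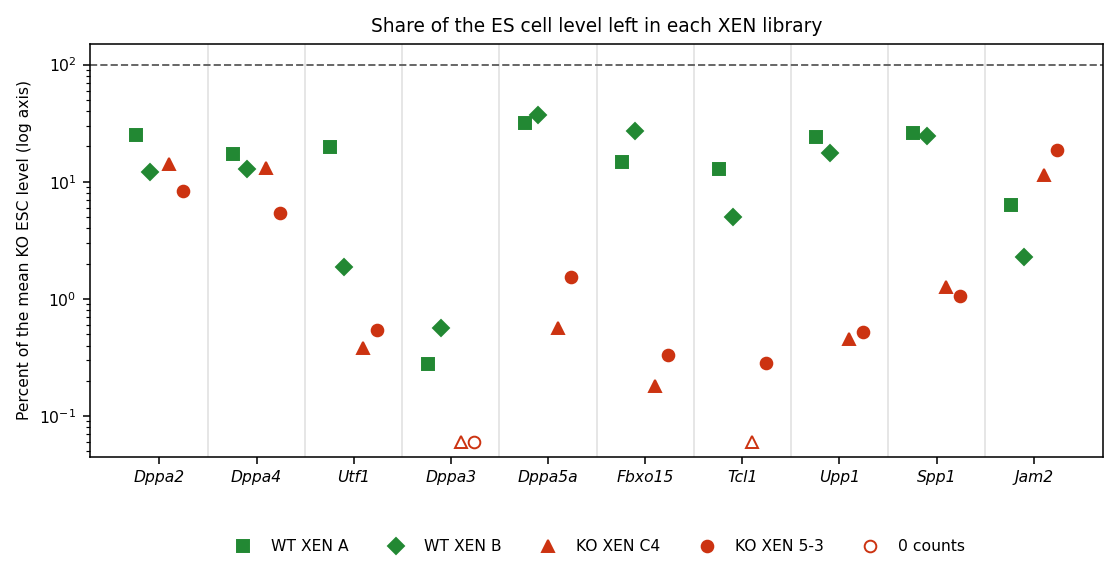
Level of each gene in each XEN library as percent of the mean KO ESC level (log axis), with WT XEN in green, KO XEN in red, open symbols at the axis floor for 0 counts and the KO ESC mean as a dashed line at 100%. In KO XEN, Dppa2, Dppa4 and Jam2 stand at 5.42 to 18.5% and the other genes at 1.54% or less.

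Between the XEN groups, 6 of the 10 genes were lower in the knockout, Jam2 was higher, and Dppa2, Dppa4 and Dppa3 did not pass the test. In the fit Fbxo15 differed the most, by 75.6-fold, and Spp1, Utf1, Upp1, Dppa5a and Tcl1 by 21.9- to 45.3-fold. The 45.3-fold of Tcl1 rested on 6 counts in KO XEN. Tcl1 passed the filter on low counts through KO ESC and WT XEN alone, which favours its call. The share of all genes called lower was 23.9% and called higher 22.3%. In 7 genes the knockout libraries lay wholly below the wild-type ones, among them Dppa3 with 0 counts in each against 1 and 2, in Jam2 wholly above, and for Dppa2 and Dppa4 they overlapped. Over all genes 38.3% did not overlap with the knockout lower and 38.2% with it higher. The median log2 difference was -4.47 over the 9 genes other than Dppa3 and 0 over all genes. The number called was 7 in each scaling, filter and tool tried, and 5 without the KO XEN library of 5-3, when Utf1 and Jam2 no longer passed. It was also 7 without both C4 libraries, but with Dppa4 past the threshold and Utf1 not. In the same comparison the summed mesenchyme markers were higher and the endoderm markers and mitochondrial share lower in the knockout, as given above, and their part in these differences was not tested.

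**Figure D3:**
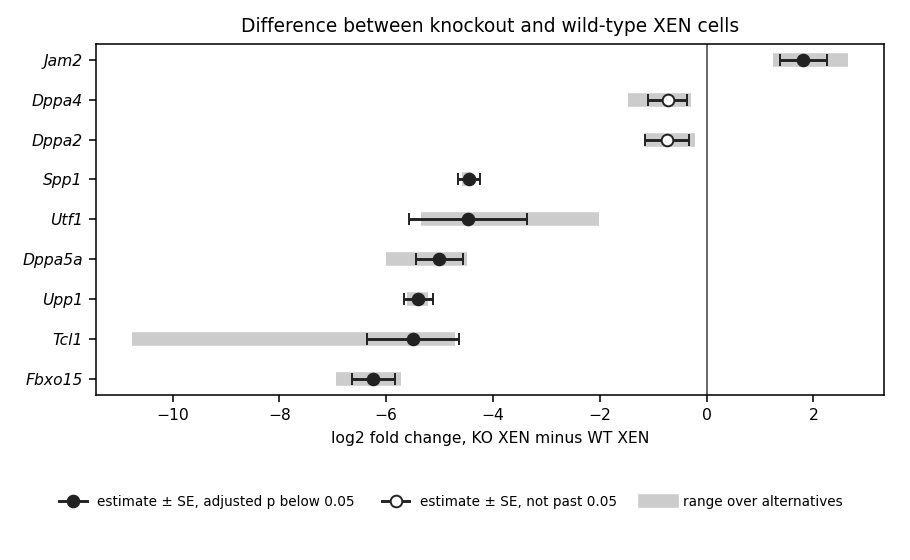
Fitted log2 fold change of KO XEN over WT XEN for 9 of the genes, as points with SE bars, filled where the adjusted p was below 0.05, and grey bars for the range over the alternative settings. Jam2 is the gene to the right of 0; the grey bar of Tcl1 reaches far left because 1 setting leaves KO XEN with 0 Tcl1 counts, where the fitted value is no bound.

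Dppa2 and Dppa4 are neighbours on chromosome 16 (chr16:48303908-48319723 and chr16:48283733-48294237, both on the plus strand). Dppa2 was at 87.5, 151 and 133 CPM in KO ESC (C4, 5-3_1 and 5-3_2), at 31.1 and 15.1 CPM in WT XEN (A and B) and at 17.6 and 10.3 CPM in KO XEN (C4 and 5-3). Dppa4 was at 142, 132 and 130 CPM, at 23.2 and 17.4 CPM, and at 17.6 and 7.32 CPM in the same libraries. For both genes every XEN library lay below every ES library, and the XEN groups overlapped. Dppa2 fell by 2.42 ± 0.40 (SE) on the log2 scale in WT XEN (adjusted p = 0.00118) and fell by 3.16 ± 0.42 in KO XEN (adjusted p = 0.000283). Dppa4 fell by 2.73 ± 0.35 (adjusted p = 0.000326) and fell by 3.46 ± 0.37 (adjusted p = 8.49e-05). Between the XEN groups the log2 difference was -0.74 ± 0.41 for Dppa2 (adjusted p = 0.176) and -0.73 ± 0.36 for Dppa4 (adjusted p = 0.131). For Dppa4 this rested on the C4 library, since the difference was -1.47 without KO XEN C4 (adjusted p = 0.00723) and -1.47 without both C4 libraries (adjusted p = 0.00947). The fall of Dppa4 from ES to KO XEN was -4.20 without KO XEN C4 and -4.17 without both C4 libraries, and that of Dppa2 -3.79 without both. The ratio of Dppa2 to Dppa4 CPM was 0.615, 1.14 and 1.02 in the ES libraries, 1.34 and 0.870 in WT XEN, and 1.00 and 1.403 in KO XEN, so it stayed between 0.615 and 1.403 while both levels fell.

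Utf1 (chr7:139943789-139945112, plus strand), the gene with the GC boxes shown above, varied most between the wild-type replicates. It was at 71.9, 140 and 131 CPM in KO ESC, at 22.4 and 2.16 CPM in WT XEN and at 0.436 and 0.615 CPM in KO XEN, where these are 6 and 20 counts. The 3 groups did not overlap, but A was 10.4 times B in WT XEN. Utf1 fell by 3.22 ± 0.84 (log2) in WT XEN (adjusted p = 0.0107) and fell by 7.69 ± 1.15 in KO XEN (adjusted p = 0.000529), with a genotype difference, KO XEN minus WT XEN, of -4.47 ± 1.10 (adjusted p = 0.0121). Without WT XEN A the fall in WT XEN was -5.69 and the genotype difference -2.02, and without WT XEN B they were -2.34 and -5.34. The genotype difference was not past the threshold without KO XEN C4 (-4.31, adjusted p = 0.0664), without KO XEN 5-3 (-4.89, adjusted p = 0.0737) or without both C4 libraries (-4.31, adjusted p = 0.0947).

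Dppa3 (chr6:122626410-122630272, plus strand), a gene expressed in a subset of ES cells in serum culture, was the lowest of the 10 per length in ES cells and the only one without a count in either KO XEN library. Its counts were 943, 147 and 155 in KO ESC, 1 and 2 for WT XEN libraries A and B, and 0 in both KO XEN libraries. In CPM the ES levels were 22.6, 3.53 and 3.10, so the library labelled C4 was 6.83 times the mean of 5-3. In WT XEN the level was 226-fold below KO ESC from 3 counts, with an exact 95% counting interval of 77.3 to 1099 (adjusted p = 0.00305 in the fit). In KO XEN it was at least 144-fold lower, taking 3 counts in the group as the floor (adjusted p = 0.00256). Both values rest on the ES library labelled C4. Against the ES libraries of 5-3 alone, a reference chosen after seeing the data, Dppa3 was at least 50.9-fold lower in KO XEN and 79.9-fold lower in WT XEN (27.1 to 389). That floor, 0.0648 CPM, allows up to 0.664% of the ES level, which is above the 0.424% left in WT XEN, so a difference between the XEN groups was not detectable at this depth (adjusted p = 0.506). Against 5-3 alone these shares were 1.95% and 1.25%. Without KO ESC C4 the fitted log2 falls were -9.89 in KO XEN and -6.23 in WT XEN, in place of -11.46 and -7.77, and without both C4 libraries -10.03 and -6.22. In DESeq2 the fall in KO XEN was -10.16. Fitted values against 0 counts depend on the prior count and are no bounds.

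Dppa5a (chr9:78367052-78368177, minus strand), the highest of the 10 in ES cells per length, kept the most in wild-type XEN cells. Its levels were 1606, 1493 and 1562 CPM in KO ESC, 489 and 577 CPM in WT XEN, and 8.78 and 23.9 CPM in KO XEN. The 3 groups did not overlap, and on the log scale the wild-type libraries lay closer to ES cells than to the knockout XEN libraries. Dppa5a fell by 1.54 ± 0.35 (log2) in WT XEN (adjusted p = 0.00592) and fell by 6.55 ± 0.46 in KO XEN (adjusted p = 1.06e-05), and the XEN groups differed by -5.01 ± 0.44 (adjusted p = 0.000212). Without WT XEN A the fall in WT XEN was -1.39 and missed the threshold (adjusted p = 0.0574). Without KO XEN 5-3, the higher knockout library, the fall in KO XEN was -7.54 and the genotype difference -6.01.

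Fbxo15, on chromosome 18, was steady in ES cells and had the largest fitted genotype difference of the group. That of Tcl1 was -5.50 ± 0.86 from 6 counts in KO XEN, so the order of Fbxo15 and Tcl1 is not settled. It was at 241, 236 and 249 CPM in KO ESC, at 35.6 and 66.1 CPM in WT XEN and at 0.436 and 0.800 CPM in KO XEN, from 6 and 26 counts. Library B was 1.86 times A in the wild type, the reverse of Utf1, Tcl1, Dppa2 and Jam2. Fbxo15 fell by 2.25 ± 0.28 (log2) in WT XEN (adjusted p = 0.000272) and fell by 8.49 ± 0.41 in KO XEN (adjusted p = 2.45e-06), with a genotype difference of -6.24 ± 0.40 (adjusted p = 0.000131). Without KO XEN 5-3 the values for KO XEN were -9.18 against ES cells and -6.94 against wild type. Of 7 genes of the SCF complex and its F-box partners, 3 were lower and 1 higher in KO XEN than in KO ESC, and 4 were lower and 0 higher in WT XEN. Over all genes 34.3% were lower and 34.8% higher in KO XEN, and 30.3% and 32.2% in WT XEN. Skp1a, the adaptor that holds F-box proteins, averaged 396 CPM in ES cells, 203 CPM in WT XEN and 155 CPM in KO XEN (log2 changes of -0.97 and -1.36), smaller than those of Fbxo15.

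Tcl1 (chr12:105216750-105222793, minus strand) was at 97.9, 51.9 and 47.2 CPM in KO ESC, at 8.44 and 3.26 CPM in WT XEN, and had 0 counts in KO XEN C4 and 6 counts, or 0.185 CPM, in KO XEN 5-3. A count of 0 in the shallow C4 library allows up to 0.218 CPM, or 0.332% of the ES level. The 3 groups did not overlap, and among ES libraries C4 was 1.98 times the mean of 5-3. Tcl1 fell by 3.49 ± 0.55 (log2) in WT XEN (adjusted p = 0.000922) and fell by 8.99 ± 0.85 in KO XEN (adjusted p = 4.28e-05), with a genotype difference of -5.50 ± 0.86 (adjusted p = 0.00169). Without WT XEN A the fall in WT XEN was -4.30 and the genotype difference -4.71, and without both C4 libraries the fall in KO XEN was -8.05. Without KO XEN 5-3 no Tcl1 count is left in that group, and no fold is given. Tcl1 binds AKT kinases, of which Akt1 averaged 34.3 CPM in ES cells, 188 CPM in WT XEN and 411 CPM in KO XEN (log2 changes of 2.45 and 3.58 from ES cells, 1.13 between XEN groups). Of the Tcl1b copies, Tcl1b1, Tcl1b3, Tcl1b4 and Tcl1b5 had 0 counts in all 7 libraries.

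Upp1 (chr11:9118103-9136170, plus strand) fell with little spread between replicates. It was at 338, 461 and 444 CPM in KO ESC, at 99.9 and 73.0 CPM in WT XEN and at 1.89 and 2.15 CPM in KO XEN. The 3 groups were far apart on this scale. The log2 change was -2.26 ± 0.21 in WT XEN (adjusted p = 6.69e-05) and -7.66 ± 0.29 in KO XEN (adjusted p = 1.39e-06), and -5.40 ± 0.27 between the XEN groups (adjusted p = 7.64e-05). The other genes of pyrimidine salvage and breakdown went both ways. Of 13 tested, 4 rose and 5 fell in KO XEN, and again 4 rose and 5 fell in WT XEN. This is near the shares of all genes, where 34.8% rose and 34.3% fell in KO XEN, and 32.2% and 30.3% in WT XEN. Dpys, which opens the ring of dihydrouracil in pyrimidine breakdown, went from 22.1 CPM in KO ESC to 0.331 in WT XEN and 0.0671 in KO XEN (log2 -6.05 and -8.33). Cda, the cytidine deaminase, averaged 0.175 CPM in ES cells, 0.288 CPM in WT XEN and 11.5 CPM in KO XEN (log2 6.0 against KO ESC, 5.31 against WT XEN). Uckl1, a uridine kinase-like gene, rose from 7.49 to 28.0 and 33.4 CPM (log2 1.90 and 2.16).

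Spp1 (chr5:104435118-104441050, plus strand), whose intron window with the octamer is printed above, was close between the replicates of each XEN group. It was at 892, 681 and 738 CPM in KO ESC, at 200 and 191 CPM in WT XEN and at 9.80 and 8.15 CPM in KO XEN. No library of a group reached the range of another. Spp1 fell by 1.98 ± 0.17 (log2) in WT XEN (adjusted p = 4.93e-05) and fell by 6.43 ± 0.22 in KO XEN (adjusted p = 1.08e-06), with a genotype difference of -4.45 ± 0.21 (adjusted p = 5.75e-05). The osteopontin receptors moved the other way. Of 11 listed receptors and related ligands 7 were tested, and all 7 rose in KO XEN, with a median log2 change of 3.01, and 5 rose and 1 fell in WT XEN, with a median of 1.52. Between the XEN groups 6 were higher in the knockout and 0 lower. Over all genes 34.8% rose in KO XEN, 32.2% rose in WT XEN, and 22.3% were higher in the knockout between the XEN groups. Cd44 went from 1.13 CPM in KO ESC to 17.9 in WT XEN and 38.4 in KO XEN (log2 3.97 and 5.07), and the integrin chain Itgb3 from 6.27 to 8.34 and 61.5 CPM (3.30 in KO XEN, not past the test in WT XEN). Itgb5 averaged 26.5 CPM in ES cells, 45.3 CPM in WT XEN and 213 CPM in KO XEN, 3.01 higher on the log2 scale than in ES cells. Integrins and Cd44 are also genes of mesenchymal cells, whose markers were higher in KO XEN as given above. Macrophages also make osteopontin. Of the macrophage and blood markers tested, Csf1r and Cd68 were lower in the knockout XEN cells (log2 -1.73 and -0.79 against wild type), Csf1r and Lyz2 were above ES cells in both groups, and the part of such cells in the Spp1 level was not tested.

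Jam2 (chr16:84774123-84825928, plus strand) was the exception to the order of the group means. It was at 376, 293 and 334 CPM in KO ESC, at 21.0 and 7.60 CPM in WT XEN and at 37.8 and 62.0 CPM in KO XEN. Both knockout libraries lay above both wild-type ones, and all 4 lay far below ES cells. Jam2 fell by 4.55 ± 0.48 (log2) in WT XEN (adjusted p = 0.000117), second to Dppa3 within the group, and fell by 2.74 ± 0.43 in KO XEN (adjusted p = 0.000711), the least of the 10. The genotype difference was 1.81 ± 0.44 (adjusted p = 0.0118), and ran from 1.25 to 2.65 over the alternative settings. It was 1.32 and not past the threshold without KO XEN 5-3 (adjusted p = 0.0872) and 2.65 without WT XEN A, and the fall in WT XEN was -5.42 without WT XEN A. Of 9 other junction genes tested, 5 rose and 0 fell in KO XEN, 7 rose and 0 fell in WT XEN, and between the XEN groups 1 was higher and 5 lower in the knockout. Over all genes 34.8% rose and 34.3% fell in KO XEN, and 32.2% and 30.3% in WT XEN. Between the XEN groups 22.3% of all genes were higher and 23.9% lower. F11r, which encodes JAM-A, rose from 60.8 CPM in KO ESC to 410 in WT XEN and 640 in KO XEN (log2 2.75 and 3.40). Jam3 rose from 9.32 to 67.3 and 38.6 CPM (log2 2.85 and 2.05, and -0.80 between the XEN groups, adjusted p = 0.0129). Ocln, a tight junction protein, averaged 7.88 CPM in ES cells, 92.4 CPM in WT XEN and 6.59 CPM in KO XEN (log2 3.55 in WT XEN and -3.77 between the XEN groups). Jam2 therefore fell where its relatives F11r and Jam3 rose. Jam2 is also a gene of endothelial cells. Of the 7 endothelial markers Kdr was higher in KO XEN than in WT XEN (log2 1.24, adjusted p = 0.00356), as Jam2 was, Cdh5, Emcn and Tek were lower (log2 -3.71, -3.82 and -1.78), and 3 did not pass the test. Their part in the Jam2 difference was not tested.

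The libraries of the knockout lines differed for some genes already as ES cells. Dppa2 and Utf1 were higher in 5-3, by 1.62 and 1.89 times over C4, Dppa3 and Tcl1 higher in C4, and for the other 6 genes C4 was at 0.747 to 1.26 of 5-3. With the ES library of the same line as reference, Dppa2 kept 20.2% in C4 and 7.24% in 5-3, Dppa4 12.4 and 5.57%, Jam2 10.0 and 19.8%, Dppa5a 0.547 and 1.56%, and Spp1 1.10 and 1.15%. Whether the change from ES to XEN differs between lines was tested with 2 residual degrees of freedom. No gene of the 10, and 0% of all genes, passed an adjusted p of 0.05 in edgeR. At an unadjusted p below 0.05, 2 of the 10 passed, Dppa5a and Dppa4, beside 1844 of all genes, or 10%. The smallest edgeR adjusted p among the members was 0.303, for Dppa5a. Line C4 has 1 ES library and each line has 1 XEN library. In ES and in XEN cells, a difference between lines and one between libraries therefore cannot be told apart.

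**Figure D4:**
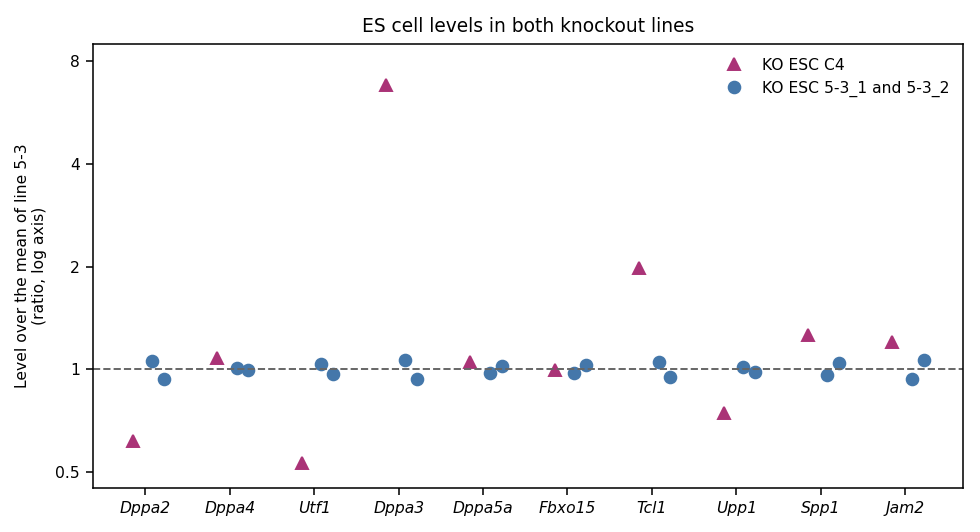
Level of each gene in the KO ESC libraries as a ratio to the mean of the 2 libraries of line 5-3 (log axis), with the library labelled C4 as triangles and 5-3_1 and 5-3_2 as circles. The C4 library stands at 6.83 for Dppa3 and 1.98 for Tcl1, and is lowest for Utf1 and Dppa2.

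The pluripotency factors themselves fell alongside. Of 15 core and naive factors, 15 were lower in KO XEN, 12 in WT XEN, and 12 between the XEN groups with the knockout lower, none higher in any of the 3 comparisons, with median log2 changes of -6.37, -4.56 and -2.62. Their summed level was 4857 to 4978 CPM in KO ESC, 761 to 822 CPM in WT XEN and 172 to 192 CPM in KO XEN. Esrrb went from 655 CPM in KO ESC to 27.7 CPM in WT XEN and 0.815 CPM in KO XEN, and Pou5f1, which encodes Oct4, from 1008 to 90.3 and 2.77 CPM. Klf2 and Sox2 were among the largest falls in WT XEN (log2 -7.31 and -6.39). Klf4, Klf5 and Tbx3 did not pass the test there (log2 -0.10, -0.15 and 0.02). In the same comparison the median of the 10 marker genes was -2.58, beside the -4.56 of the factors. Of 15 further ES markers, KO XEN had 13 lower than ES cells and WT XEN 9, and 10 were lower in the knockout against the wild type, none higher, with medians of -4.89, -1.24 and -3.09. Of all genes, 23.9% were lower and 22.3% higher in the knockout between the XEN groups. Fgf4, the growth factor, and Gdf3 were nearly lost in both XEN groups (log2 -8.64 and -7.73 in WT XEN). Tdh, the threonine dehydrogenase of ES cells, was at 472 CPM in KO ESC, at 200 CPM in WT XEN and at 1.79 CPM in KO XEN. Dnmt3l, a cofactor of DNA methylation, was at 441, 109 and 1.60 CPM. Of 11 genes of the primed epiblast 3 rose and 5 fell in either XEN group, and of 8 trophoblast markers tested 4 rose and 2 fell in KO XEN, and 4 rose and 0 fell in WT XEN. Over all genes 34.8% rose and 34.3% fell in KO XEN, and 32.2% and 30.3% in WT XEN. The keratin gene Krt18 averaged 6.43, 486 and 1067 CPM in KO ESC, WT XEN and KO XEN, and Cdh2, which encodes N-cadherin, 3.03, 36.6 and 226 CPM. Other genes of these lists fell in KO XEN. Dnmt3b averaged 350, 195 and 12.3 CPM and Otx2 29.1, 9.52 and 0.836 CPM, the latter not past the test in WT XEN. The trophoblast genes Cdx2 and Gcm1, at 0.484 and 1.13 CPM in KO ESC, were at 0 in KO XEN.

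Genes tied to the roles of Dppa2, Dppa4 and Dppa3 were followed as well. Of 14 tested genes of the 2-cell-like state or known to depend on Dppa2 and Dppa4, KO XEN had 6 lower than ES cells and WT XEN 3. Against the wild type 2 were lower in the knockout, and none was higher in any comparison. Over all genes 34.3, 30.3 and 23.9% were lower in these comparisons, and 34.8, 32.2 and 22.3% higher. Sycp3, a meiotic gene, was at 33.1, 13.7 and 1.63 CPM in KO ESC, WT XEN and KO XEN. Dazl, a germ cell gene, was at 17.2, 20.4 and 1.35 CPM (log2 -3.70 in KO XEN, not past the test in WT XEN). Of 8 genes of DNA methylation, 6 fell and 1 rose in KO XEN, and 7 fell and 1 rose in WT XEN. Tet3, an oxidase of methylcytosine that acts in the zygote, was the one that rose, from 15.8 to 77.4 CPM in WT XEN and 169 CPM in KO XEN. Tet1, its counterpart in ES cells, fell from 827 to 32.9 and 15.5 CPM.

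Among the 9179 genes that averaged 10 CPM or more in KO ESC, which leaves out Dppa3 at 9.76 CPM, the falls were placed by their fitted log2 change. In KO XEN against KO ESC, Tcl1 was at rank 40 from the largest fall, Fbxo15 at 52, Utf1 at 79, Upp1 at 82, Dppa5a at 119 and Spp1 at 122, ahead of Dppa4 at 482, Dppa2 at 583 and Jam2 at 792. In WT XEN Jam2 had the highest rank of the 9, at 187, and Dppa5a the lowest, at 1214. Between the XEN groups Fbxo15 was at rank 14, and Tcl1, Upp1, Dppa5a, Utf1 and Spp1 at 25 to 66, whereas Dppa2 and Dppa4 stood at 2601 and 2629 and Jam2 at 8713. In this comparison 6 of the 9 ranked genes therefore stood within the first 66 ranks.

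The genes most like the group were sought by the root mean square distance from its median profile, in log2(CPM + 0.1) relative to KO ESC over the 7 libraries, among 8507 other named genes with at least 10 CPM in KO ESC. Zscan10, an ES cell zinc finger factor, was nearest at 0.32, with 111 to 131 CPM in KO ESC, 19.9 and 19.13 CPM in WT XEN and 1.52 and 1.91 CPM in KO XEN. Atf7ip2 followed at 0.47, with 22.2 to 25.3 CPM, 5.15 and 5.64 CPM, and 0.145 and 0.400 CPM. Esco2, a cohesin acetyltransferase, was also at 0.47, with 180 to 231 CPM, 47.9 and 56.8 CPM, and 1.60 and 1.85 CPM. Of the 10 genes themselves, Spp1 lay nearest to the median profile at 0.48, Upp1 at 0.63 and Dppa5a at 0.69, and Jam2 farthest at 2.31. These 10 genes set that profile, so their distances cannot be compared with those of the other genes.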

How the data were processed

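RNA was extracted from E14 cells of 3 groups and poly(A) libraries were sequenced on an Illumina HiSeq2000. The authors deposited 1 table of counts, whole numbers of reads for each Ensembl gene in 7 libraries. STAR 2.4.2a, featureCounts 1.4.5-p1 and the build mm10 are named in the submitters' processing notes. The strand setting of the counting and its annotation release are not given in the sources used here, so genes that overlap others and near-identical copies are uncertain.

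Groups and lines came from the sample titles. Symbols, positions and exon lengths came from GENCODE release M21 (GRCm38, the assembly of mm10), which matched 42462 of 43629 identifiers, and promoter windows from RefSeq (GRCm38.p6). In R 4.3.3, all 7 libraries entered 1 quasi-likelihood model of edgeR 4.0.16 with group as the term, after TMM scaling and filterByExpr, which left 18426 genes and set aside 25203. For the libraries here that filter needs 0.259 CPM or more in at least 2 libraries. The fit had 4 residual degrees of freedom. A gene was called at an adjusted p below 0.05 (Benjamini-Hochberg, over all genes tested). The SE of a log2 fold change is its size divided by the square root of F. Nothing in the labels says that replicate libraries are separate cultures, so p-values measure only the spread between these libraries. CPM uses TMM-scaled library sizes, and a remaining share is the CPM of a XEN library as percent of the mean of the 3 KO ESC libraries. Where a group had 0 counts the fold is a bound against 3 counts over the group. Floors and intervals cover counting error only. The difference between lines used 5 groups.

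The members, the 15 gene lists (175 entries, 2 without a match in the table, Dppa5b and Skp1) and the settings were chosen with earlier results of these data known. All 10 members were named. From a list at most 3 called genes were taken for a comparison, by largest change among genes that reached 10 CPM in a group of the pair. Not every gene that this allows is named: marker lists of other cell types are given mainly by sums and counts. Pou5f1, Skp1a, Jam3, Dnmt3l and other genes that this rule gives in only 1 of the comparisons are shown with their levels in all 3 groups. Markers of other cell types named beside the counts of their lists (Lrp2, Hnf4a, Sparc, Acta2, Lum, Csf1r, Lyz2, Cd68, Ptprc, Adgre1, Kdr, Cdh5, Emcn, Tek, Cdx2 and Gcm1) were named after their values were seen. So were the factors Klf4, Klf5 and Tbx3. Alternatives were RLE and upper quartile scaling, no filter, DESeq2 1.42.0, the 2 groups alone, the line as a replicate block, and leaving out each library or both C4 libraries. Lines C4 and 5-3 pair KO ESC with KO XEN by label: the C4 minus 5-3 differences of the ES and of the XEN libraries had r = 0.0634 across 18426 genes (log2 of CPM + 0.5). The fit was also run on simulated counts with the same spread for all genes and most genes unchanged. These data differ in both, so that run does not vouch for the calls given here.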

Additional observations from a re-analysis of the deposited data

How the results depend on the processing

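Of the alternatives, no setting turned the direction of a member in any of the 3 comparisons. The count of members called was 10 in KO XEN against KO ESC under every setting, 10 in WT XEN against KO ESC except 9 without WT XEN A, and 7 in KO XEN against WT XEN except 5 without KO XEN 5-3. With the line as a replicate block the counts were 10, 10 and 7, the median log2 fold change in KO XEN against KO ESC was -7.11, and the block changed no call of a member. The median log2 fold change in KO XEN against KO ESC, -7.11 as reported, was -7.23 with upper quartile scaling, -7.15 with no filter, -7.14 with DESeq2 and -7.08 without both C4 libraries, and ran from -7.70 to -7.04 when leaving out each library in turn. That in WT XEN against KO ESC, -2.58, ran from -2.96 (without WT XEN A) to -2.44. Upper quartile scaling moved the median of all genes by -0.12 in KO XEN and by -0.17 in WT XEN against KO ESC. The median of the members went from -7.11 to -7.23 and from -2.58 to -2.75, a shift close to that of all genes. Calls of single members that changed with a left-out library are given beside each gene above, where the cause was not tested. The KO XEN library labelled C4, at 13941826 counts the shallowest, limits what can be seen of Tcl1, Dppa3, Utf1 and Fbxo15 in that group.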
